A study of Mus musculus with 5 samples.

Results

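The 9 genes described here encode the receptors and enzymes through which cells read natriuretic peptides and nitric oxide, *Npr1*, *Npr2*, *Npr3*, *Gucy1a1*, *Gucy1b1*, *Prkg1* and *Pde5a*, and the receptors for angiotensin II and endothelin, *Agtr1a* and *Ednra*. They were picked by name, 9 of 20365 gene names in the tables, and for each the 3′ interval that had the most CPM, averaged over the labeled libraries, was used. Cardiac fibroblasts (CF), the matrix-producing cells of the heart muscle, came from healthy adult male C57Bl/6J wildtype mice, were released by perfusing the heart with collagenase and were grown to confluency. They were then kept for 12 h with 0.1 mM 4-thiouridine (S4U; labeled, 3 libraries) or for the same 12 h without it (unlabeled, 2 libraries), and the RNA was alkylated before sequencing (SLAMseq). S4U is a uridine analog that enters RNA made during these hours, and alkylated S4U is sequenced as C where the genome has T. The T>C conversion rate is the share of covered T positions seen as C, and it is higher the more of a transcript was made in the 12 h.

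Natriuretic peptides bind NPR1 and NPR2, which are themselves guanylyl cyclases and make cyclic GMP (cGMP), whereas NPR3 lacks the cyclase and removes the peptides from the medium. Nitric oxide diffuses into the cell and binds soluble guanylyl cyclase, a dimer of an alpha and a beta subunit that also makes cGMP. cGMP activates protein kinase G and is hydrolysed by phosphodiesterases. In CF this pathway is known for restraining fibrotic activation, and angiotensin II and endothelin, which act through receptors coupled to Gq, for driving it.

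On 1 interval per gene, the libraries held from 506045 (labeled replicate 3) to 1842863 reads. Levels are given as CPM relative to these counted reads, because the deposited CPM divides by a number 7.58-fold to 28.9-fold larger that differs between libraries. The libraries were made from transcript 3′ ends, about 1 read per transcript, so levels were not divided by length. The study states 3 CF preparations for SLAMseq. Cells without S4U were incubated in parallel, without a statement of which preparation each unlabeled library came from, and p-values measure the spread between these 5 libraries. Fibroblast markers were abundant, at a summed 38763 to 42891 CPM in the labeled and 31735 to 35573 CPM in the unlabeled libraries, and all 9 of them had reads. Markers of vessel cells were low or mixed. The 7 pericyte markers summed to 76.1 to 176 CPM in the labeled and 156 to 166 CPM in the unlabeled libraries, mostly from *Mcam* and *Notch3*, and *Rgs5*, *Kcnj8* and *Vtn* stayed at or below 7.90 CPM in each library. Of the 6 smooth muscle markers, the defining *Myh11* had 1 read in 5 libraries, whereas the sum, led by *Acta2* and *Tagln*, was 1036 to 2454 CPM in the labeled and 540 to 999 CPM in the unlabeled libraries. The 7 endothelial markers summed to 125 to 203 and 150 to 214 CPM. The markers named were picked from the lists after their values were seen.

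The soluble guanylyl cyclase subunits led the group in these cells. Over the 3 labeled libraries, *Gucy1a1* had the highest mean level, followed by *Gucy1b1*, *Npr3*, *Prkg1*, *Npr2*, *Pde5a*, *Agtr1a* and *Ednra*, and *Npr1* had 1 read in all 5 libraries. The same order held between neighbours beyond the larger SD and in each labeled library, except that *Gucy1b1* and *Npr3* (difference 2.88 CPM) and *Npr2* and *Pde5a* (difference 4.24 CPM) were not separated by their spread. Labeled levels chose the intervals, so this order is a description. With reads summed over all intervals, which counts the reads of *Gucy1b1* in both of its intervals, its level became 171 CPM and that of *Gucy1a1* 160 CPM, and the order of the pair turned. In the reads, 6 of the 8 genes that passed the filter on low counts had every labeled library below both unlabeled libraries, where 13.1% of all 9807 genes tested had this pattern, and none had every labeled library above both, where 8.2% did. Of the 6, *Ednra* reached the level that the filter asks for, 8.37 CPM, in the unlabeled libraries only, so it could enter only through the group where it is high. Among genes that reached this level in at least 2 labeled libraries, the groups did not overlap in this way for 5 of 7, against 12.5% of 9233 genes. None of these differences passed edgeR's quasi-likelihood test after Benjamini-Hochberg adjustment over all genes.

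**Figure D1:**
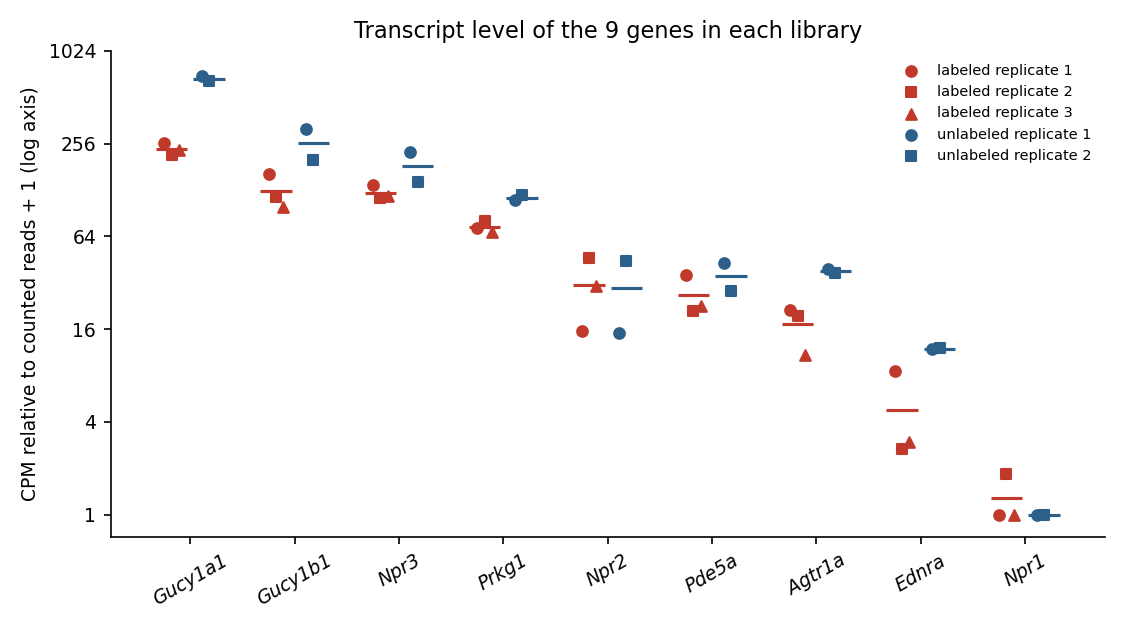
Level of each gene in each library, as CPM relative to counted reads plus 1 on a log axis, with red for labeled and blue for unlabeled libraries, symbols for replicates and lines for the group means. *Gucy1a1* sits between 213 and 256 CPM in the labeled and at 652 and 699 CPM in the unlabeled libraries, and the groups also do not overlap for *Gucy1b1*, *Npr3*, *Prkg1*, *Agtr1a* and *Ednra*.

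*Gucy1a1* (ENSMUSG00000033910.15) encodes the alpha subunit of the nitric oxide receptor. It was counted on its only interval, chr3:81999734-82002001 of GRCm39, minus strand, in exon 9, the 3′ UTR. In the labeled libraries, replicates 1, 2 and 3 held 404, 255 and 117 reads, or 256, 213 and 231 CPM, and the mean of 234 ± 21.6 CPM (SD, n = 3) was higher than that of 94.5% of the 14283 genes with reads. In the unlabeled libraries, 1288 and 649 reads gave 699 and 652 CPM. All 3 labeled libraries thus lay below both unlabeled libraries, and the gap between the groups was wider than the spread within either. The unlabeled mean was 2.89 times the labeled mean. In edgeR's test, the log2 fold change, labeled against unlabeled, was −1.45 (standard error 0.22, unadjusted p = 0.000338, the third smallest of 9807), and the adjusted p was 0.434. DESeq2 gave −1.46 with an adjusted p of 0.0126. Among all genes tested, 0.673% had a fitted log2 fold change as low as this or lower. Leaving out any library moved it between −1.51 and −1.39. In bulk libraries, fewer cells of a type and less RNA per cell cannot be told apart.

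*Gucy1b1* (ENSMUSG00000028005.15), the beta subunit that carries the heme to which nitric oxide binds, lies 17710 bases from *Gucy1a1* on the same strand of chromosome 3. It was counted at chr3:81939311-81940561, in the 3′ UTR of exon 14, and a slightly longer interval with the same 3′ end held the same reads. The 255, 136 and 50 reads of the labeled libraries corresponded to 162, 114 and 98.8 CPM, a mean of 125 ± 32.9 CPM (SD, n = 3). The 580 and 198 reads of the unlabeled libraries corresponded to 315 and 199 CPM. The groups did not overlap, and the libraries of each group were further apart than for *Gucy1a1*. The log2 fold change was −0.95 (standard error 0.30, unadjusted p = 0.0158, adjusted p = 0.724, edgeR). Without unlabeled replicate 1 it was −0.64, so this library decided a good part of its size. There were more reads of *Gucy1a1* than of *Gucy1b1* in each library, with ratios of 1.58, 1.88 and 2.34 in the labeled and 2.22 and 3.28 in the unlabeled libraries, which overlap. The ratio of the subunits therefore did not separate the groups, while each subunit did.

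Both transcripts were counted to within 1 base of their annotated 3′ ends, where the libraries take their reads. The 30 bases around the polyadenylation hexamer near the end of each gene are shown with the hexamer in capitals, because its place relative to the counted interval decides what the reads can show.
*Gucy1a1*, chr3:81999749-81999778, minus strand: tcattttatctaAATAAAaacattatcaag
*Gucy1b1*, chr3:81939314-81939343, minus strand: gcgcattaatttAATAAAatggtattgaca
*Npr1*, chr3:90356475-90356504, minus strand: tgttgcattttaAATAAAtgtgtgctcaga
For *Gucy1a1* and *Gucy1b1* the hexamer lies inside the counted interval. For *Npr1* it lies outside, since the interval ends 1441 bases short of the annotated end of the gene. AATAAA was searched on the gene strand in the last 50 bases of each gene, and 59.4% of 18624 protein-coding genes hold it there.

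*Npr1* (ENSMUSG00000027931.14) encodes the receptor for atrial and brain natriuretic peptide. On its interval, chr3:90357899-90358426 in exon 22, 1 read was counted in labeled replicate 2 and none in the other four libraries. A count of 0 allows up to 1.90 CPM in labeled replicate 1, 5.93 CPM in labeled replicate 3, and 1.63 and 3.01 CPM in the unlabeled libraries, counting 3 reads as the limit and covering counting error only. These limits apply to the interval and not to the transcript, given where it ends. Of 9576 tested genes with an annotated end, 28.9% also had an interval that stopped over 1000 bases short. *Npr1* did not pass the filter on low counts, and its T>C rate was not measurable.

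*Npr2* (ENSMUSG00000028469.17), the receptor for C-type natriuretic peptide, was the natriuretic receptor with a cyclase that had reads in each library. It was counted at chr4:43650979-43651437, plus strand, in exon 22. The labeled libraries had 14.6, 45.2 and 29.6 CPM (23, 54 and 15 reads) and the unlabeled libraries 14.1 and 43.2 CPM (26 and 43 reads). The groups overlapped fully, and the replicates numbered 1 were low in both. The log2 fold change was 0.15 (standard error 0.65, adjusted p = 1.00, edgeR), and it became −0.35 without labeled replicate 2 and −0.52 without unlabeled replicate 1, so it has no settled direction. An exon of *Spag8* on the other strand overlaps the interval.

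*Npr3* (ENSMUSG00000022206.9), the clearance receptor, was the best read of the natriuretic receptors. Its interval, chr15:11839982-11845262 on the minus strand, is 5281 bases of 3′ sequence, of which exon 8 of the canonical transcript covers the first part only. The labeled libraries had 137, 112 and 117 CPM (216, 134 and 59 reads), a mean of 122 ± 13.3 CPM (SD, n = 3), and the unlabeled libraries 224 and 143 CPM (412 and 142 reads). The lower unlabeled library was close to the highest labeled one, and the groups did not overlap. The log2 fold change was −0.50 (standard error 0.27, unadjusted p = 0.103, adjusted p = 0.936, edgeR). Without unlabeled replicate 1 it was −0.20, and without unlabeled replicate 2 −0.75. A shorter interval of 792 bases covers the start of the same stretch, and it held 26.9%, 17.9% and 22.0% of the reads of the longer one in the labeled and 18.9% and 13.4% in the unlabeled libraries. Most reads of *Npr3* in each library thus lay in the distal 4489 bases. The gene ends with ATTAAA in place of AATAAA, a hexamer that 17.8% of genes hold in their last 50 bases.
*Npr3*, chr15:11839987-11840016, minus strand: cagtatgttctcATTAAAcgtatactctac

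Downstream of cGMP, *Prkg1* (ENSMUSG00000052920.18), protein kinase G, was counted at chr19:30541887-30546637, minus strand, in exon 18. Its level was 71.7, 79.5 and 67.2 CPM in the labeled libraries (113, 95 and 34 reads; 72.8 ± 6.23, SD, n = 3) and 109 and 117 CPM in the unlabeled libraries (201 and 117 reads). Both groups were tight and did not overlap. The log2 fold change was −0.56 (standard error 0.25, unadjusted p = 0.0601, adjusted p = 0.864, edgeR). The shorter of its intervals, which leaves out the last 645 bases, held 36.3%, 29.5% and 47.1% of the reads in the labeled and 30.3% and 20.5% in the unlabeled libraries. As for *Npr3*, most reads came from the distal end.

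*Pde5a* (ENSMUSG00000053965.12), the phosphodiesterase that hydrolyses cGMP and is the target of sildenafil, was counted at chr3:122648982-122653023, plus strand, in exon 21. Its level was 34.9, 20.1 and 21.7 CPM in the labeled libraries (55, 24 and 11 reads) and 41.8 and 27.1 CPM in the unlabeled libraries (77 and 27 reads). The groups overlapped, since labeled replicate 1 exceeded unlabeled replicate 2. The log2 fold change was −0.34 (standard error 0.37, adjusted p = 1.00, edgeR), and it was −0.04 without unlabeled replicate 1 and −0.65 without labeled replicate 1. An exon of the noncoding gene 4933405D12Rik on the other strand overlaps the interval.

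Of the receptors for vasoconstrictors, *Agtr1a* (ENSMUSG00000049115.17), the angiotensin II receptor of type 1, was counted at chr13:30566017-30566850, plus strand, its only interval, in exon 3. The labeled libraries held 32, 22 and 5 reads, or 20.3, 18.4 and 9.88 CPM (16.2 ± 5.55, SD, n = 3). The unlabeled libraries held 70 and 36 reads, or 38.0 and 36.1 CPM. The 2 unlabeled libraries were nearly equal and the labeled libraries all lay below them, labeled replicate 3 lowest on 5 reads. The unlabeled mean was 2.29 times the labeled mean, and the log2 fold change was −1.06 (standard error 0.36, unadjusted p = 0.0222, adjusted p = 0.731, edgeR).

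*Ednra* (ENSMUSG00000031616.9), the endothelin A receptor, was near the limit of detection. Its interval, chr8:78389658-78391604 on the minus strand in exon 8, stops 3068 bases short of the annotated end and lies within 4933431K23Rik, a noncoding gene on the other strand, without touching an exon of it. The labeled libraries held 12, 2 and 1 reads (7.61, 1.67 and 1.98 CPM) and the unlabeled libraries 20 and 11 reads (10.9 and 11.0 CPM). The groups did not overlap, but on few reads, and the log2 fold change of −1.29 (standard error 0.69, unadjusted p = 0.103, adjusted p = 0.936, edgeR) became −2.47 without labeled replicate 1, −0.90 without labeled replicate 2 and −1.12 without labeled replicate 3.

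Read together, 7 of the 8 genes tested had a fitted log2 fold change below 0, against 48.3% of all genes, and their median was −0.76, against 0.02 for all genes. Without *Ednra*, which passed the filter through the unlabeled libraries only, these were 6 of 7 and −0.56. At an adjusted p below 0.05 edgeR called 0 of the 8, and 0% of all genes were lower and 0% higher. At an unadjusted p below 0.05, *Gucy1a1*, *Gucy1b1* and *Agtr1a* were lower, where 3.12% of all genes were, and no gene of the group was higher, where 2.84% were. DESeq2 called *Gucy1a1* alone of the group, with 0.0331% of its 12067 genes lower and 0.0829% higher. With the replicate number as a block, edgeR called 5 of the group lower, with 6.29% of all genes lower and 5.38% higher, and no source says that these numbers pair the libraries, although labeled and unlabeled cells were incubated in parallel. These genes were chosen with earlier results known, so the counts describe them. Beside these values, the summed smooth muscle markers were higher in each labeled library than in either unlabeled one, with *Tagln*, an actin-binding protein of contractile cells, at 468, 517 and 777 against 164 and 211 CPM (log2 fold change 1.73, adjusted p = 0.532 with edgeR and 0.0158 with DESeq2), while *Myh11* was at 0 in all 3 labeled libraries. Of the other best read markers of that list, *Acta2* overlapped between the groups (log2 fold change 1.19) and *Smtn* had a log2 fold change of 0.07. In that list 4 genes were tested, 0 had a log2 fold change below 0, and their median was 1.27. This median counts *Cnn1* (1.35), named after its values were seen, which passed the filter on low counts through the labeled libraries only. The summed fibroblast markers were also higher in each labeled library than in either unlabeled one. This sum was led by *Col1a1*, *Col1a2* and *Col3a1*, with log2 fold changes of 0.57, 0.51 and 0.14, and the median of the list was 0.08. In that list 2 of 9 genes had a log2 fold change below 0. They include *Pdgfra*, named after its values were seen, at 525, 524 and 516 against 722 and 841 CPM (log2 fold change −0.51). The summed pericyte markers overlapped between the groups. The part of these markers in the read differences was not tested.

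**Figure D2:**
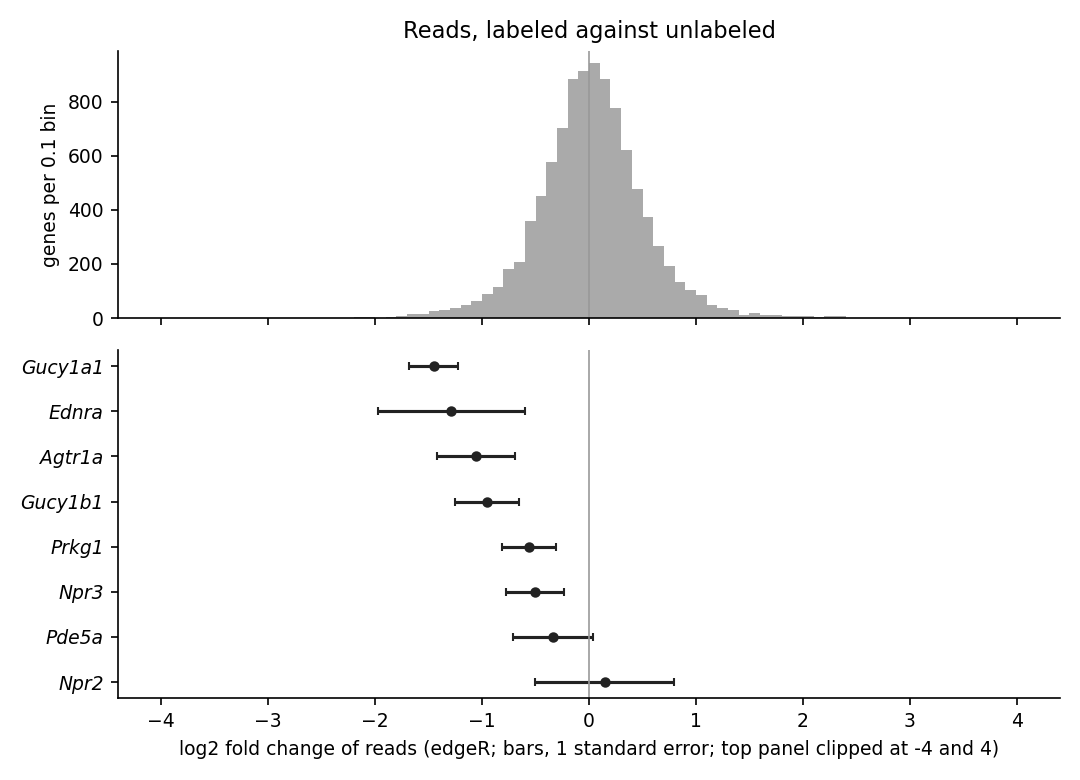
Log2 fold change of reads, labeled against unlabeled, in edgeR's fit, with the distribution over all 9807 genes tested in bins of 0.1 (top) and the 8 genes tested with bars of 1 standard error (bottom). *Gucy1a1*, at −1.45, lies in the left tail, and *Npr2*, at 0.15, is the only gene of the group above 0.

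The T>C conversion rate, which reads newly made RNA, is no part of the rule for genes and intervals. It was raised in the labeled libraries for 8 of the 8 genes with a covered T in every library (beta-binomial test, adjusted p below 0.05 over 19240 intervals), where 94.5% of all intervals were raised, so the share raised was near that of the background. The genes differed in how well the size of the rate is known. The median over the 2121 genes whose labeled libraries each covered at least 1000 T positions is used as a scale. This median labeled rate was 3.88%, with quartiles at 3.43% and 4.23%. The mean rates of the 8 genes ran from 2.38% for *Agtr1a* to 4.74% for *Npr2*, with a median of 4.00%.

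The subunit transcripts of soluble guanylyl cyclase had the best measured rates. For *Gucy1a1*, labeled replicates 1, 2 and 3 had 389 conversions in 9924, 257 in 6217 and 125 in 2878 covered T positions, which is 3.92%, 4.13% and 4.34% (4.13 ± 0.212%, SD, n = 3). The rates in the unlabeled libraries were 0.0935% and 0.050%. The adjusted p was 5.77e-06 (beta-binomial test), and the mean exceeded that of 69.0% of the deeply covered genes. For *Gucy1b1* the labeled rates were 3.75%, 4.36% and 4.85% (4.32 ± 0.554%, SD, n = 3) from 6433, 3647 and 1360 covered T positions, and the unlabeled rates were 0.0404% and 0.0373% (adjusted p = 1.15e-05, beta-binomial test). Its mean exceeded that of 80.7% of the deeply covered genes. The labeled rates of the subunits differed by less than the spread between libraries. Counted by reads, 60.9% to 61.5% of *Gucy1a1* reads and 58.8% to 68.0% of *Gucy1b1* reads carried at least 1 conversion in the labeled libraries, and at most 2.41% and 1.03% in the unlabeled libraries.

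*Npr3* had labeled rates of 3.81%, 4.36% and 3.43% (3.87 ± 0.471%, SD, n = 3) from 1197 to 4068 covered T positions, and unlabeled rates of 0.0238% and 0.0651% (adjusted p = 1.43e-05, beta-binomial test). This is the middle of the distribution, above 49.1% of the deeply covered genes. *Prkg1* had 3.66%, 4.92% and 2.81% (3.80 ± 1.06%, SD, n = 3) from 853 to 2360 covered T positions, against 0.0481% and 0.0648%. Its replicates 2 and 3 differed most, with exact 95% intervals (Clopper-Pearson) of 4.08% to 5.87% and 1.81% to 4.16% that overlap little. Such intervals take covered T positions as independent, and here the positions came from 95 and 34 reads, so they may be too narrow.

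*Npr2* had 6.74%, 4.45% and 3.03% (4.74 ± 1.87%, SD, n = 3) on 267, 876 and 264 covered T positions. The highest of these rests on 18 conversions, with an exact 95% interval of 4.04% to 10.4%. In the unlabeled libraries, 1 of 396 and 0 of 749 covered T positions were converted. *Pde5a* had 3.24%, 3.84% and 2.58% (3.22 ± 0.630%, SD, n = 3), and 0 of 1141 and 0 of 565 covered T positions in the unlabeled libraries, which allows up to 0.263% and 0.531%. All of its labeled rates lay below the median of the deeply covered genes, and their intervals, the widest from 0.842% to 5.91%, included it.

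*Agtr1a* had the lowest mean rate of the group, at 2.97%, 3.36% and 0.794% (2.38 ± 1.39%, SD, n = 3). The value of labeled replicate 3 is 1 conversion in 126 covered T positions, and its exact 95% interval runs from 0.0201% to 4.34%. Without this library the mean was 3.17%, from 740 and 535 covered T positions. The unlabeled rates were 0.180% and 0.218%, from 3 and 2 conversions. *Ednra* had 7 of 289, 4 of 40 and 0 of 32 covered T positions converted, on 12, 2 and 1 reads. The rates were 2.42%, 10% and a value of 0, which allows up to 9.38% only if the positions of that 1 read are independent. The mean of *Ednra*, 4.14 ± 5.22% (SD, n = 3), was 1.21% without labeled replicate 2, which held 2 reads. Its call (adjusted p = 0.0168, beta-binomial test) was lost without labeled replicate 1. Between neighbours in the order of mean rates, *Npr2*, *Gucy1b1*, *Ednra*, *Gucy1a1*, *Npr3*, *Prkg1*, *Pde5a* and *Agtr1a*, no difference exceeded the larger SD.

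**Figure D3:**
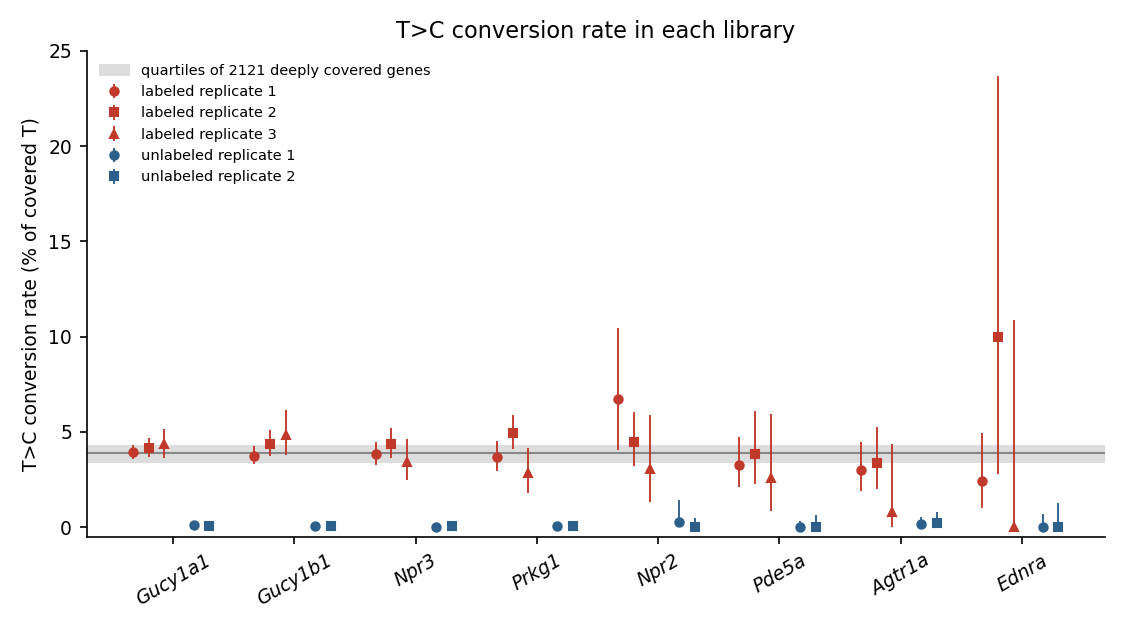
T>C conversion rate of 8 genes in each library, as percent of covered T positions, with red for labeled and blue for unlabeled libraries. Bars are exact 95% binomial intervals, which cover counting error only and take covered T positions as independent. The grey band spans the quartiles, 3.43% to 4.23%, and the line the median, 3.88%, of 2121 deeply covered genes; the intervals are narrowest for *Gucy1a1* and widest for *Ednra*.

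The 3′ intervals of these genes varied in base composition. T made up from 21.0% (*Npr1*) to 35.9% (*Gucy1b1*) of an interval, above 28.8%, the median over 1 interval per gene, for 6 of the 9 and below it for *Agtr1a*, *Npr2* and *Npr1*. ATTTA, the core of AU-rich elements through which many short-lived messengers are degraded, was searched on the gene strand with overlaps counted. The *Gucy1a1* interval held 8 (3.53 per kb), *Gucy1b1* 4 (3.20 per kb), *Prkg1* 14 (2.95 per kb), *Npr3* 14 (2.65 per kb) and *Agtr1a* 2 (2.40 per kb). *Pde5a* held 4 (0.99 per kb), near the median over 1 interval per gene, 1.02 per kb, and *Npr1*, *Npr2* and *Ednra* held none. Longer intervals hold any motif more often, and of intervals (1 per gene) within 10% of the length, 99.4% hold ATTTA for *Prkg1*, 99.2% for *Npr3*, 92.7% for *Gucy1a1*, 80.5% for *Gucy1b1* and 64.7% for *Agtr1a*, and of those without it 90.3% for *Ednra*, 50.7% for *Npr1* and 46.6% for *Npr2*. The longer TATTTAT, which contains ATTTA, occurred in *Gucy1a1* (42.5% of intervals of like length hold it), *Agtr1a* (18.2%) and *Prkg1* (63.2%), and it is shown in capitals for the receptors whose read differences were largest among genes counted on a single interval to the annotated end.
*Gucy1a1*, chr3:82000239-82000268, minus strand: ttgcgaaggtcTATTTATgatgtcacaatg
*Agtr1a*, chr13:30566576-30566605, plus strand: agttagtggtgTATTTATgtagcagtgtaa
A match is a string of letters and not a shown site.

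By level and T>C rate over the libraries, the gene most like *Gucy1a1* among 2120 deeply covered genes was *Magt1*, at 287, 309 and 316 CPM in the labeled and 418 and 419 CPM in the unlabeled libraries and a labeled rate of 4.06%. The sum of the root mean square differences in log2 level and in percentage points of rate was 0.637, and *Magt1* had a log2 fold change of −0.38, smaller in size than that of *Gucy1a1*. For *Gucy1b1* it was *Rnf13* (sum 0.382, labeled rate 4.35%, log2 fold change −0.41). For *Npr3* it was *Prrc1* (sum 0.411, labeled rate 3.83%, log2 fold change −0.02).

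Other genes of the pathway place these values. Of 19 genes for natriuretic peptides, their processing and nitric oxide and cGMP signaling, all were in the tables, *Irag1* under its older symbol *Mrvi1*, and 8 had enough reads to be tested, of which edgeR called 0 at an adjusted p. Their median log2 fold change was −0.50 and 7 of 8 were below 0, against 48.3% of all genes. Both values count *Mrvi1*, which passed the filter on low counts only through the group where it is high, so they are a description. The best read were *Furin*, a convertase of prohormones, at 332 ± 97.4 CPM (SD, n = 3 labeled libraries), *Vasp*, a substrate of protein kinase G, at 90.9 ± 31.7 CPM, and *Ppp1r12a*, the targeting subunit of myosin phosphatase, at 74.2 ± 18.6 CPM. The other alpha subunit, *Gucy1a2*, had 59.6, 27.6 and 33.6 CPM in the labeled and 103 and 60.2 CPM in the unlabeled libraries, with a log2 fold change of −0.92 (unadjusted p = 0.0562, edgeR). The kinase substrate *Mrvi1* had 10.8, 6.69 and 3.95 CPM in the labeled and 20.6 and 18.1 CPM in the unlabeled libraries, and it passed the filter on low counts through the unlabeled libraries only, so its log2 fold change of −1.25 (adjusted p = 0.773, edgeR) is not read as a difference. Among the ligands, *Nppb* had no read, *Nppa* 2 reads in labeled replicate 1 and *Nppc* at most 10 reads in a library, and of the nitric oxide synthases *Nos3* had the most, at 4.44 to 9.21 CPM in the labeled and 6.51 and 19.1 CPM in the unlabeled libraries. *Corin*, *Gucy1b2* and *Gucy2c* had no read. *Gucy1a2*, *Mrvi1*, *Nppa*, *Nppc* and *Nos3* were named after their values were seen.

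Of 10 other genes of cGMP phosphodiesterases and their subunits, 6 were tested and 0 called, with a median log2 fold change of −0.22. *Pde1a*, at 221 ± 79.4 CPM (SD, n = 3 labeled libraries), and *Pde3a*, at 141, 124 and 124 CPM, were read at higher levels than *Pde5a* in every labeled library. *Pde6d*, at 33.6 ± 7.68 CPM, was the third. The labeled T>C rate was 3.90 ± 0.344% for *Pde1a* and 3.55 ± 0.557% for *Pde3a* (SD, n = 3). The log2 fold changes of these better read enzymes, 0.04 and 0.08, were close to 0.

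For the angiotensin and endothelin receptors, the surrounding list had 15 genes, of which 6 were tested and 0 called, with a median log2 fold change of 0.02. The cells had transcripts of the endothelin ligand and its convertase, *Edn1* at 98.1 ± 21.7 CPM and *Ece1* at 162 ± 47.8 CPM (SD, n = 3 labeled libraries), and of *Agtrap*, which binds the angiotensin receptor, at 85.4 ± 7.98 CPM. The labeled T>C rate of *Edn1* was 3.52 ± 0.338%, and that of *Ece1* 3.40 ± 0.236% (SD, n = 3). *Ednrb*, the endothelin B receptor, was read at 20.3, 24.3 and 13.8 CPM in the labeled and 22.8 and 16.1 CPM in the unlabeled libraries, above the interval of *Ednra*, which stops short of the gene's end, in each, and *Agtr1b* and *Agtr2* had at most 2 reads in all. *Ren1*, *Mas1*, *Edn2* and *Edn3* had no read. *Ednrb*, *Agtr1b* and *Agtr2* were named after their values were seen.

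The list of Gq and RhoA coupling, through which the vasoconstrictor receptors act, had 21 genes, 17 tested and 0 called, with a median log2 fold change of −0.09. This median counts *Rgs4* and *Arrb2*, which passed the filter on low counts through the labeled libraries only. *Gnaq* led at 434 ± 147 CPM, followed by *Rhoa* at 323 ± 80.8 and *Arhgef12* at 251 ± 95.1 CPM (SD, n = 3 labeled libraries), and the labeled T>C rates of the deeply covered genes ran from 3.97% for *Gna13* to 4.42% for *Gnaq*. In this list 2 genes had no read. *Rock2*, the kinase downstream of RhoA, was lower at an unadjusted p of 0.0258 (239, 162 and 140 against 374 and 290 CPM; log2 fold change −0.80, adjusted p = 0.742, edgeR). *Rgs4*, a GTPase activator that ends Gq signaling, had 28.6, 31.0 and 39.5 CPM in the labeled and 6.51 and 8.03 CPM in the unlabeled libraries, and it reached the level of the filter in the labeled libraries only, so its log2 fold change of 2.25 (adjusted p = 0.532, edgeR) is not read as a difference. Of 32 other receptors for vasoactive ligands, 7 had no read, and 13 were tested and 0 called, with a median of −0.32. It counts *Adora2a* and *S1pr3* (log2 fold change −0.95), which passed the filter on low counts through the unlabeled libraries only. It also counts *Tbxa2r* (0.91), which passed through the labeled libraries only, so this median is a description. *F2r*, the thrombin receptor, was the best read at 595 ± 245 CPM, then *Lpar1* at 330 ± 80.8 and *Ptger4* at 117 ± 32.6 CPM, and the labeled T>C rate was highest for *F2r*, at 4.11%, and lowest for *Lpar1*, at 3.88%, of the deeply covered receptors. *Adora2a*, the adenosine receptor of type 2A, had 5.71, 2.51 and 1.98 CPM in the labeled and 17.4 and 11.0 CPM in the unlabeled libraries, and it reached the level of the filter in the unlabeled libraries only, so its log2 fold change of −1.84 (adjusted p = 0.724, edgeR) is not read as a difference. *Rgs4*, *Arrb2*, *Rock2*, *Adora2a*, *S1pr3* and *Tbxa2r* were named after their values were seen.

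**Figure D4:**
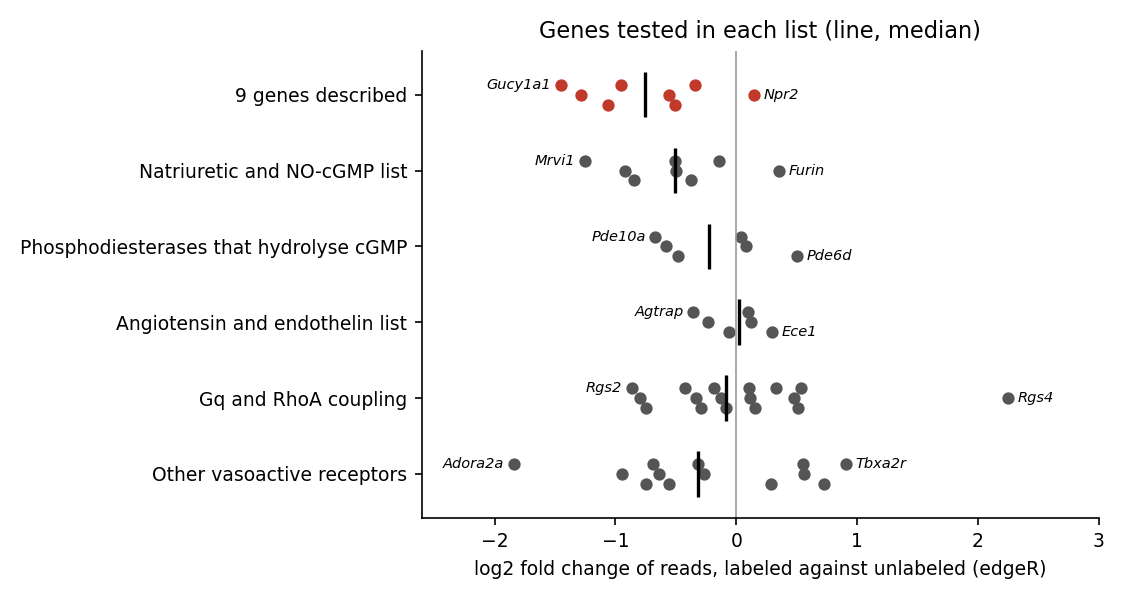
Log2 fold change of reads (edgeR), labeled against unlabeled, of every gene tested among the 9 genes described and in 5 lists of related genes, with the lowest and highest gene of each named and a line at the median. The median of the genes described is −0.76, or −0.56 without *Ednra*, which passed the filter on low counts through the unlabeled libraries only, and that of the angiotensin and endothelin list is 0.02. *Mrvi1*, *Adora2a* and *S1pr3*, which also passed through the unlabeled libraries only, count in the medians of their lists. So do *Rgs4*, *Arrb2* and *Tbxa2r*, which passed through the labeled libraries only.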

How the data were processed

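SLAMseq libraries of CF, 3 labeled with S4U and 2 unlabeled, were grouped by the submitters' labels. The authors added unique molecular identifiers, mapped the 3′ end reads to mm39 with slamdunk 0.4.3, removed duplicates and counted on 3′ UTR intervals. The deposited values are counts of reads, of covered T positions and of conversions, the conversion rate as a fraction, and a CPM. The deposited tables hold 40428 distinct intervals, each taken once. All 40380 intervals that lie on the reference had the T content of GRCm39 (starts converted to count from 1). Exons and gene ends were read from the annotation and sequences from the genome of that build. Strandedness of the counting is not given in the sources used here, so reads where genes overlap on opposite strands are uncertain.

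The 9 genes and all gene lists were chosen with earlier results of these data known. A beta-binomial likelihood-ratio test was run on the T>C conversions (chi-square with 1 degree of freedom, two-sided), and edgeR's quasi-likelihood test (TMM, filterByExpr) on the reads of 1 interval per gene, both with Benjamini-Hochberg adjustment over all features. The interval was picked on labeled reads, so for genes with several intervals the read comparison is not independent of that choice, and summed reads, which count nested intervals more than once, were an alternative. Genes named beside the 9 were, by rule, the 3 with the highest labeled level in each list, the highest and lowest labeled T>C rate of those whose labeled libraries each covered 1000 or more T positions, any that passed the read test, those without a read (by name or number), and the gene nearest to each deeply covered gene of the 9 (log2 of CPM + 1 and T>C rate). Others are said to be named after their values were seen. A result for 1 list gene is not reported here. The software was Python 3.11.15 with scipy 1.17.1, numpy 2.4.6, numba 0.67.0, pandas 2.3.3 and matplotlib 3.10.9, and DESeq2 1.42.0, edgeR 4.0.16 and limma 3.58.1 in R 4.3.3.

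On simulated data, with 200 of 9807 genes changed by 2 on the log2 scale, edgeR recovered 95 with 5 false calls, DESeq2 107 with 15, and edgeR with the replicate block 85 with 16. The beta-binomial test called 154 of 200 intervals given a 3-fold rate among 3000, with 13 false calls after adjustment, and 9.36% of unchanged intervals at an unadjusted p below 0.05, so it calls too often. Limma on the log odds recovered 143 with 3 false calls. Libraries of a group differed beyond sampling noise (chi-square per degree of freedom 2.04 to 16.6), so none was counted as a copy. Depth ran from 15282090 to 53609626 covered T positions per library. Intervals and limits for counts of 0 cover counting error only. Alternatives were other minimums of covered T positions, limma, DESeq2, RLE size factors, other filters and intervals, the replicate block and each library left out. Calls at an unadjusted p for reads were added after the data were seen.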

Additional observations from a re-analysis of the deposited data

How the results depend on the processing

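With DESeq2, RLE size factors, summed reads, the block and each library left out, the read difference kept its direction for *Gucy1a1*, *Gucy1b1*, *Npr3*, *Prkg1*, *Pde5a*, *Agtr1a* and *Ednra*, and *Npr2* reversed to −0.35 without labeled replicate 2 and −0.52 without unlabeled replicate 1, and was 1.19 without unlabeled replicate 2. For genes with changed reads, edgeR called 0, DESeq2 14, edgeR with an unadjusted p 585, and edgeR with the replicate number as a block 1145 (6.29% of genes lower, 5.38% higher). Of the 9 genes these settings called 0, 1 (*Gucy1a1*), 3 and 5. The 5 called with the block were *Gucy1a1* (−1.47, adjusted p = 1.03e-18), *Gucy1b1* (−0.84, 1.36e-05), *Npr3* (−0.49, 0.0306), *Prkg1* (−0.53, 0.0409) and *Agtr1a* (−0.87, 0.0265), a fit that leaves 1 residual degree of freedom. No source says that a number marks a shared preparation. The correlation of deviations from group means was 0.785 for the pair numbered 1 and 0.638 for the pair numbered 2, and that of labeled replicate 3, which has no partner, was 0.482 with unlabeled replicate 2, where the 2 controls mirror each other. Without any one labeled library, 0 genes and 0 of the 9 were called. Leaving out an unlabeled library leaves 1 in that group, so only effect sizes are read from those fits. Raised T>C rates numbered 18175 intervals, 17613 to 18549 without one labeled library, and 3154 when each library had to cover 1000 T positions, since fewer were tested. Of the 9 genes 8 were raised, 7 to 8 without one labeled library, and 3 at that minimum, where 3 were tested. *Ednra* was the gene lost without labeled replicate 1. Labeled replicate 3 held 1 read of *Ednra*, 5 of *Agtr1a* and 11 of *Pde5a*, which limits what their values show.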
